A study of Mus musculus with 8 samples.

Results

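The genes described are 45 components of the machinery that forms and receives transport vesicles at the endoplasmic reticulum, the Golgi apparatus and the endosomes of mouse cells. They are subunits of the COPI and COPII coats, the ARF GTPase-activating proteins (ARF GAPs) of the COPI cycle, the AP-1 and AP-3 adaptors, the GGA adaptors, Golgi matrix proteins, p24 cargo receptors and KDEL receptors. They were chosen by gene symbol, from a list of the machinery drawn up with earlier results of these data known; the rule itself uses no measured value. All 45 of 45 symbols were found among 47643 genes. Their mRNA was measured in spinal cord of C57BL/6 mice by RNA sequencing, with 1 library from each of 8 animals. The genotype label reads heterozygous for 4 animals and homozygous for 4, without naming the allele. Arf1 was to be deleted by intraperitoneal tamoxifen at 100 mg/kg; the ages given for the study are 2 to 10 months. The sources used here give neither the alleles nor the driver of the recombinase. They also leave out whether heterozygous animals were injected, and the age and sex of single animals. The submitters describe the subject as the function of Arf1 in neurons, and the comparison made here is homozygous against heterozygous cord; no wild-type group is among the samples used here. Replicates are separate animals, and p-values refer to the spread between these animals.

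ARF1 is a small GTPase that, once loaded with GTP, inserts into Golgi membranes and recruits the coats and adaptors that bend the membrane into vesicles. COPI coatomer carries proteins back from the Golgi to the endoplasmic reticulum and between Golgi cisternae, and ARF GAPs end its cycle by triggering GTP hydrolysis. COPII, recruited by the related GTPase SAR1, carries newly made proteins out of the endoplasmic reticulum. AP-1, AP-3 and the GGAs bind ARF1 and sort cargo toward endosomes and lysosome-related organelles, golgins and GRASP proteins hold the stack together, and p24 proteins and KDEL receptors are the cargo receptors that cycle through these vesicles. Neurons depend on this route for synaptic vesicle precursors and for membrane proteins of long axons.

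Arf1 itself was at 334, 296, 322 and 303 CPM (read counts scaled to library size, with TMM factors) in heterozygous replicates 1 to 4. It was at 22.5, 22.8 and 39.9 CPM in homozygous replicates 2, 3 and 4. The library labelled homozygous replicate 1 held 307 CPM, inside the heterozygous range, so its Arf1 level goes against its label. Every comparison was therefore made over 8 libraries and over 7 libraries without it. Between these sets the log2 fold change moved by at most 0.22, for Kdelr3, and by at most 0.09, for Copz2, among the other 44 genes, and where 1 interval is printed it is that over 7. The log2 fold change of Arf1 was -1.67 (SE 0.95, edgeR adjusted p = 0.42) over 8 libraries. Over 7 it was -3.46 (SE 0.21, edgeR adjusted p = 0.000796), which is no independent test because that same Arf1 level decided which library to leave out. The libraries held 26321522 to 37879426 counts. Homozygous replicate 3 also stands apart in its quality measures, with 92.36% of reads mapped and 2.44% ribosomal bases against 98.33% to 98.53% and 0.1% to 0.34% in the other 7. The RNA integrity number was 8 for homozygous replicate 4 and 9 for the other 7 libraries. Heterozygous replicate 1 stands apart in GGA adaptor genes and folding genes of the endoplasmic reticulum, as given beside the GGA results. In tissue RNA, fewer cells of a type and less RNA per cell cannot be told apart. Marker genes of neurons, oligodendrocytes, astrocytes and microglia, the cell types of the cord, were present in every library.

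None of the 45 genes was called different between the genotypes by the test used, which called no gene or few. This count is near the share over all genes and does not show that the 45 were unchanged. At an adjusted p of 0.05 in edgeR's quasi-likelihood fit over all genes, 0 of 45 passed over 8 libraries, where 0% of 16511 genes passed. Over 7 libraries 0 of 45 passed, where 1.22% of 16560 genes passed. DESeq2 also called 0 of 45 in both sets, where it called 1.64% of all genes higher and 2.48% lower over 8 libraries and 2.6% and 3.94% over 7. Limma-voom called 0 of 45 in both, against 0% of all genes over 8 libraries and 0.332% higher and 0.326% lower over 7. At an unadjusted p under 0.05, 5 genes were higher and 1 was lower over 8 libraries (11.1% and 2.22% of the 45, against 7.87% and 8.9% of all genes). Over 7 libraries 5 were higher and 3 lower (11.1% and 6.67%, against 9.51% and 9.94%). The smallest adjusted p was 0.138 over 8 libraries, for Kdelr3, and 0.123 over 7, for Kdelr1. None of the 45 is among the 185 genes of the authors' deposited table of changed genes. That table holds a small part of the 47643 genes, so the absence of these 45 says little about them.

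The precision of these genes was high enough to bound most differences closely. Leaving Kdelr3 aside, log2 fold changes lay between -0.18 and 0.18 over 8 libraries and between -0.23 and 0.23 over 7, and 34 and 29 of the 45 genes were within 0.1 of 0. The 95% interval lay within 0.5 on the log2 scale (1.41-fold) in either direction for 44 genes over 8 libraries and 43 over 7, with Kdelr3 the exception in both and Copz2 in the second. The same held for 62.0% and 57.2% of all genes. The median SE of the log2 fold change was 0.062 and 0.068 for the 45 genes against 0.108 and 0.115 for all genes. With genes limited to at least 1 CPM in 4 libraries, the all-gene median SE was 0.097 and 0.103. Of those genes, 70.7% and 65.9% had intervals within 0.5. How far the precision of the 45 follows from their level was not tested. The median log2 fold change was 0.0027 and -0.0078 for the 45 against 0.0015 and 0.0027 for all genes tested. Of the 45 genes 23 were higher in homozygous cord over 8 libraries and 22 over 7.

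**Figure D1:**
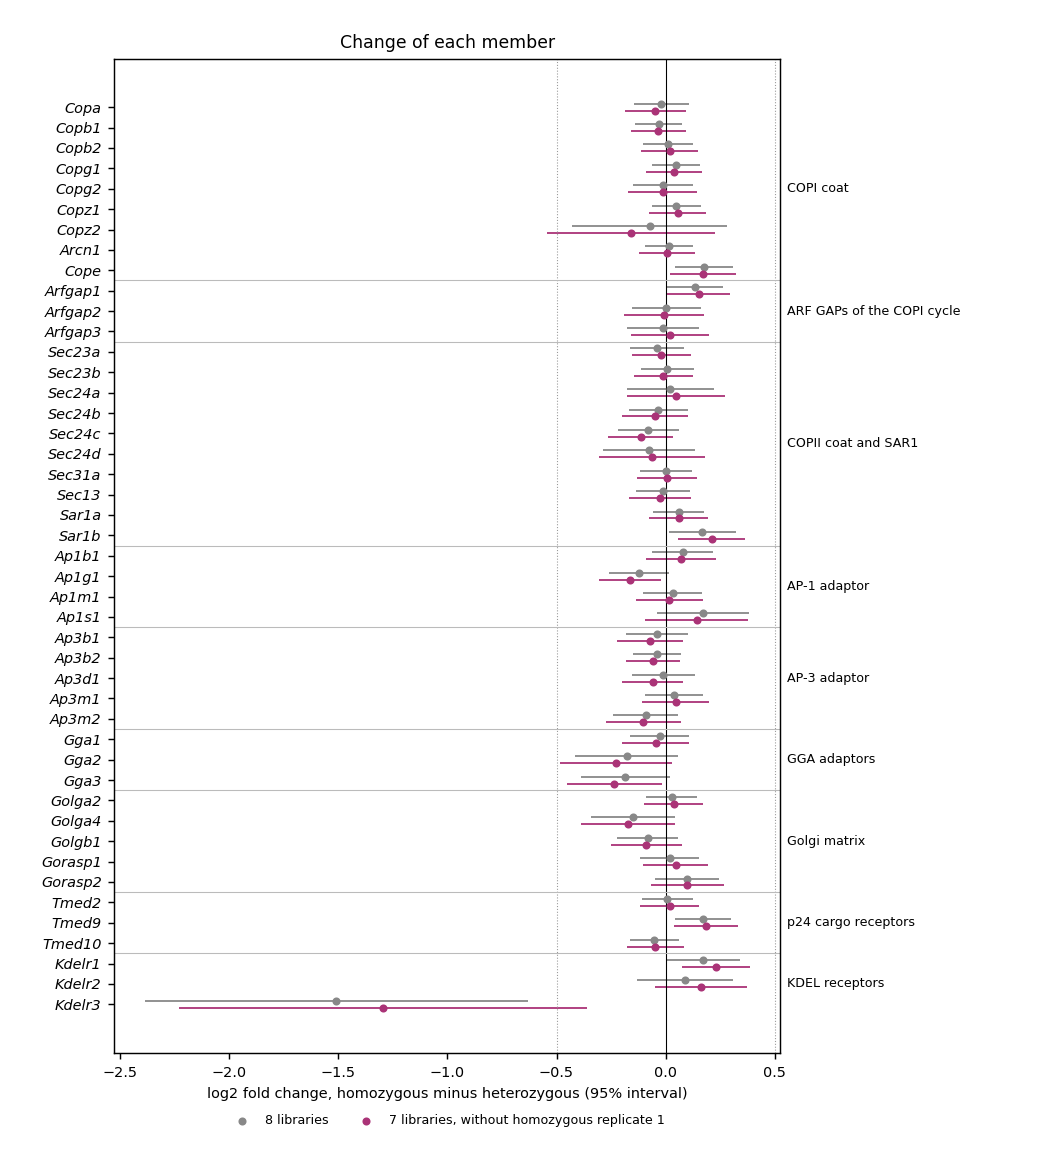
Log2 fold change of homozygous against heterozygous cord for each of the 45 genes, as points with 95% intervals, over 8 libraries (grey) and over 7 without the library labelled homozygous replicate 1 (purple); dotted lines mark 0.5 in either direction. Nearly all intervals sit between the dotted lines, and Kdelr3 is the gene far from 0 with a wide interval.

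Levels can be compared between genes only per transcript length, in RSEM's TPM unit, and are given here for the heterozygous libraries as mean ± SD (n = 4). Ap1s1, a small subunit of AP-1 with paralogs Ap1s2 and Ap1s3 outside the 45, was the highest of the 45 at 291 ± 27.4 TPM. It was followed by Copg1, a gamma subunit of coatomer, at 161 ± 6.95 TPM and the p24 receptors Tmed2 and Tmed9 at 154 ± 8.73 and 140.3 ± 1.02 TPM. Copg1 and Tmed2 did not differ beyond their spread. The lowest were Copz2, Sec24d, Sec24a and Kdelr3, at 7.68 ± 1.56, 7.36 ± 0.795, 4.44 ± 0.654 and 1.24 ± 0.388 TPM. Copz2 and Sec24d did not differ beyond their spread. Single genes of one group were far from equal in mRNA. Within COPI, Copg1 was 20.9-fold above Copz2, and among the COPII and SAR1 genes, Sar1a was 20.5-fold above Sec24a. Among the KDEL receptors Kdelr1 was 45.6-fold above Kdelr3. Copz2 and Sec24a have more abundant paralogs, Copz1 at 77.02 ± 2.88 TPM and Sec24c at 31.55 ± 2.25 TPM. These ratios therefore compare genes, not whole subunits of a coat. Among the genes chosen here, the 3 p24 and 3 GGA genes were the most even, with a highest-to-lowest ratio of 1.85 and 1.71. Further p24 genes outside the 45 are not part of this ratio, and 1 of them, Tmed11, was at 0 CPM in every library.

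**Figure D2:**
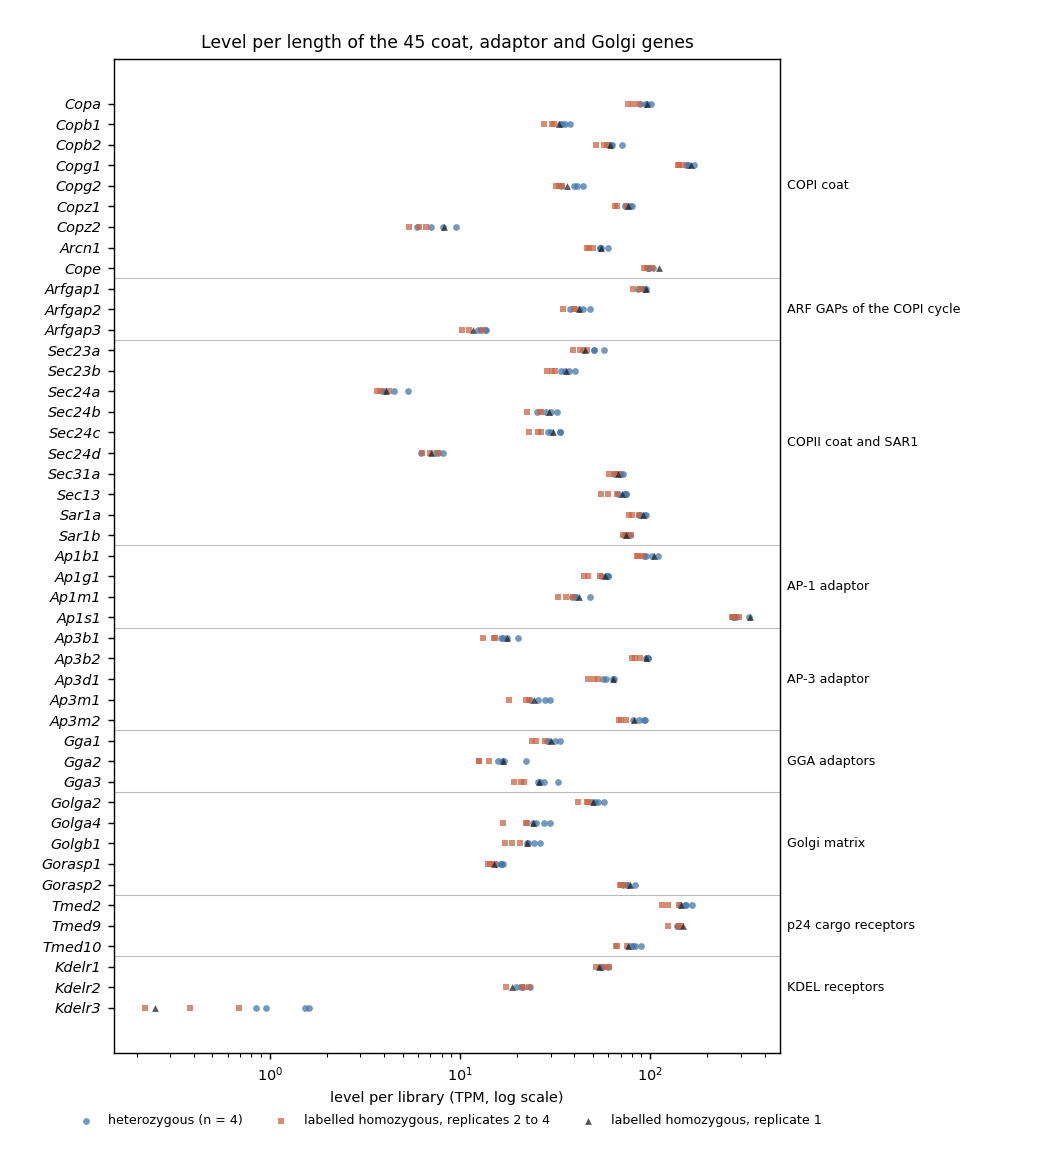
TPM of each of the 45 genes in every library on a log axis, in groups by complex; circles are the 4 heterozygous libraries, squares homozygous replicates 2 to 4, and the triangle the library labelled homozygous replicate 1. Levels span from about 300 TPM for Ap1s1 to about 1 TPM for Kdelr3, and so wide an axis does not resolve small differences between the groups. On log2(TPM + 1) over 7 libraries the median log2 fold change was -0.22 for the 45 genes and -0.17 for all genes.

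Promoter sequence offers a feature the choice of genes did not use. In RefSeq promoters of GRCm38.p6, running from 250 bases before to 50 after the gene start, 38 of the 45 genes had an entry. The letters TGACGTGG, known as the core of the unfolded protein response element (UPRE) read by XBP1 and ATF6, have a match on either strand in 5 of these 38 genes (13.2%) and in 0.714% of all 27025 genes with a promoter. The 5 windows, on the strand of the gene, are shown because they bring together 2 COPI, 2 COPII and 1 KDEL receptor gene. The motif is in capitals, and is read on the reverse strand as CCACGTCA where so printed.
Copb1 (chr7:114254693-114254716, minus strand): gcccccttCCACGTCAgccaagga
Copb2 (chr9:98563716-98563739, plus strand): cggaagttCCACGTCAgtgggttg
Kdelr3 (chr15:79516370-79516393, plus strand): ccgccccgCCACGTCAccgcgcgg
Sec23a (chr12:59011996-59012019, minus strand): ctccccttTGACGTGGcagaggcg
Sec24d (chr3:123267462-123267485, plus strand): cgggcgccTGACGTGGcactagca
All 5 matches begin between 30 bases before and 6 bases after the annotated start. The cyclic AMP response element TGACGTCA, which shares the letters TGACGT with the UPRE, was present in 1 gene, Cope (2.03% of all genes). GTCACGTG, the core of the lysosomal CLEAR element read by TFEB, was in 3, Gga2, Gorasp1 and Tmed10 (2.55% of all genes). The ER stress elements ERSE and ERSE-II, which end in CCACG and can overlap a UPRE on the other strand, were in 0 of the 38 (0.137% and 0.0444% of all genes). These are matches of letters within a window and say nothing of binding.

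Of the 5 genes with the UPRE letters, 4 had log2 fold changes near 0 over 7 libraries, at -0.03 for Copb1, 0.02 for Copb2, -0.02 for Sec23a and -0.06 for Sec24d (edgeR adjusted p from 0.776 to 0.893). The fifth, Kdelr3, had -1.30 (edgeR adjusted p = 0.139).

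The 9 COPI coatomer subunits showed no called difference, and 5 of 9 were higher in homozygous cord in each set, with median log2 fold changes of 0.01 over 8 libraries and 0.0079 over 7. The alpha subunit Copa had a log2 fold change of -0.05 (95% interval -0.19 to 0.09) over 7 libraries, and the delta subunit Arcn1 0.01 (-0.12 to 0.14). The beta subunits Copb1 and Copb2 had -0.03 (-0.16 to 0.09) and 0.02 (-0.11 to 0.15). Copg1, the most abundant subunit, stood at 321, 313, 322 and 317 CPM in heterozygous cord, 334, 326 and 322 CPM in homozygous replicates 2 to 4 and 334 CPM for the library labelled homozygous replicate 1. Its groups overlap. The exception in rank, though not in test, was Cope, the epsilon subunit that steadies the alpha subunit of coatomer. Cope was at 62.9, 64.3, 68.99 and 59.4 CPM in heterozygous cord, 69.4, 75.1 and 71.5 CPM in homozygous replicates 2 to 4 and 72.8 CPM for the library labelled homozygous replicate 1. All 4 libraries labelled homozygous lay above the heterozygous range, by a small margin. Its log2 fold change was 0.18 (SE 0.06, edgeR adjusted p = 0.197) over 8 libraries and 0.17 (SE 0.068, edgeR adjusted p = 0.203) over 7.

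Coatomer contains one gamma and one zeta subunit, each made from a pair of genes, and the pairs were used unequally. Copg2 gave 19.8 ± 1.46% of gamma TPM in heterozygous libraries (SD, n = 4). The single values were 17.6, 20.4, 20.6 and 20.6%, against 19.5, 19.2 and 17.6% in homozygous replicates 2 to 4 and 18.2% in the library labelled homozygous replicate 1. Copz2 gave 9.02 ± 1.45% of zeta TPM, against 8.07 ± 0.542% in homozygous replicates 2 to 4 (SD, n = 3). In CPM, Copg2 was at 71.7, 78.1, 80.1 and 82.03 CPM in heterozygous cord, 81.4, 77.8 and 72.6 CPM in homozygous replicates 2 to 4 and 77.98 CPM for the library labelled homozygous replicate 1. Copz1 stood at 68.6, 64.5, 67.4 and 64.5 CPM in heterozygous cord, 66.99, 69.4 and 70.1 CPM in homozygous replicates 2 to 4 and 67.8 CPM for the library labelled homozygous replicate 1. Copz2 was at 3.07, 2.59, 3.59 and 3.74 CPM in heterozygous cord, 2.68, 3.06 and 3.0 CPM in homozygous replicates 2 to 4 and 3.6 CPM for the library labelled homozygous replicate 1. The groups overlap for all of these, and the fold change of Copz2 over 7 libraries, -0.16, has an interval of -0.54 to 0.23 that its low level leaves wide.

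Among the 3 ARF GAPs that act on the coat, Arfgap1, which senses membrane curvature, was the most abundant per length (91.9 ± 3.57 TPM) and the only one whose groups of libraries did not overlap. It was at 92.4, 95.1, 87.6 and 86.2 CPM in heterozygous cord, 101, 104 and 95.5 CPM in homozygous replicates 2 to 4 and 95.6 CPM for the library labelled homozygous replicate 1. The 4 libraries labelled homozygous sit above the 4 heterozygous ones, the closest by less than 1 CPM. Its log2 fold change was 0.13 (SE 0.059, edgeR adjusted p = 0.279) over 8 libraries and 0.15 (SE 0.065, edgeR adjusted p = 0.24) over 7. The coatomer-binding Arfgap2 and Arfgap3 had log2 fold changes of -0.01 (-0.19 to 0.17) and 0.02 (-0.16 to 0.20) over 7 libraries. Such separation of the groups was counted over all genes too. Over 8 libraries homozygous lay wholly above heterozygous for 3 of the 45 genes (Cope, Arfgap1 and Tmed9; 4.61% of all genes) and wholly below for 1 (Kdelr3; 4.67% of all genes). Over 7 libraries the counts were 5 above (these 3 with Sar1b and Kdelr1) and 5 below (Kdelr3, Ap1g1, Gga2, Gga3 and Ap3b2), 11.1% of the 45 each way against 9.76% and 8.77% of all genes.

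Of the 10 COPII genes none passed the test, 5 were higher over 8 libraries and 4 over 7, and the median log2 fold change was -0.0042 and -0.01. The outer cage genes Sec13 and Sec31a had -0.02 (-0.17 to 0.12) and 0.01 (-0.13 to 0.15) over 7 libraries. Sar1b, 1 of the 2 SAR1 GTPases that start the coat and the one known for the export of lipoprotein particles, had the largest difference. It was at 45.3, 46.7, 45.7 and 39.98 CPM in heterozygous cord, 51.6, 52.1 and 50.6 CPM in homozygous replicates 2 to 4 and 45.4 CPM for the library labelled homozygous replicate 1. Homozygous replicates 2 to 4 lie above all heterozygous libraries, while the library labelled homozygous replicate 1 lies inside their range. Sar1b had a log2 fold change of 0.17 (SE 0.069, edgeR adjusted p = 0.261) over 8 libraries and 0.21 (SE 0.069, edgeR adjusted p = 0.142) over 7.

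Its paralog Sar1a, the most abundant COPII gene, was at 135, 126, 129 and 123 CPM in heterozygous cord, 132, 134 and 135 CPM in homozygous replicates 2 to 4 and 134 CPM for the library labelled homozygous replicate 1. Its groups overlap. Sar1b made up 44.6, 47.1, 46.1 and 43.8% of SAR1 TPM in heterozygous cord, 48.5, 48.1 and 47.3% in homozygous replicates 2 to 4 and 45.02% in the library labelled homozygous replicate 1. The share in homozygous replicates 2 to 4 was higher by 2.55 percentage points (exact permutation test, two-sided, p = 0.0571, adjusted p = 0.257 over the 9 shares tested). Sar1b (chr11:51763687-51791925) and Sec24a (chr11:51692264-51763634) are neighbours on opposite strands, transcribed away from each other with 52 bases between their annotated starts (GENCODE M21, GRCm38). Sec24a was at 14.7, 16.1, 14.5 and 17.3 CPM in heterozygous cord, 17.7, 16.4 and 14.5 CPM in homozygous replicates 2 to 4 and 15.04 CPM for the library labelled homozygous replicate 1. Its groups overlap, with a log2 fold change of 0.05 (-0.18 to 0.27) over 7 libraries.

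The inner coat genes, which pick the cargo, come in families of paralogs. Sec23b made up 42.2 ± 1.0% of SEC23 TPM in heterozygous libraries and 41.5 ± 1.87% in homozygous replicates 2 to 4. In CPM, Sec23a was at 109, 113, 102 and 109.7 CPM in heterozygous cord, 108, 105 and 108 CPM in homozygous replicates 2 to 4 and 101 CPM for the library labelled homozygous replicate 1. Sec23b was at 43.7, 41.3, 39.9 and 42.1 CPM in heterozygous cord, 40.5, 42.3 and 41.6 CPM in homozygous replicates 2 to 4 and 43.5 CPM for the library labelled homozygous replicate 1. Neither gene separates the groups. Among the 4 SEC24 adaptors, Sec24c and Sec24b made up 42.6% and 40.6% of the family's TPM over 8 libraries, Sec24d 10.6% and Sec24a 6.18%. Sec24b was at 56.4, 49.998, 49.2 and 53.8 CPM in heterozygous cord, 52.3, 49.6 and 50.04 CPM in homozygous replicates 2 to 4 and 52.8 CPM for the library labelled homozygous replicate 1. Sec24c was at 84.5, 73.7, 77.4 and 77.6 CPM in heterozygous cord, 74.7, 70.2 and 72.4 CPM in homozygous replicates 2 to 4 and 79.4 CPM for the library labelled homozygous replicate 1. It had the lowest log2 fold change of the COPII genes (-0.11, edgeR adjusted p = 0.376, over 7 libraries). Sec24d was at 15.9, 13.7, 13.7 and 16.4 CPM in heterozygous cord, 16.1, 12.97 and 13.8 CPM in homozygous replicates 2 to 4 and 13.8 CPM for the library labelled homozygous replicate 1. Its share was 10.2 ± 0.717% in heterozygous libraries and 11.5 ± 1.22% in homozygous replicates 2 to 4 (exact permutation p = 0.143). The groups overlap for each of these genes.

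The AP-1 adaptor, which gathers cargo into clathrin vesicles at the trans-Golgi network, had subunits on both sides of 0: 3 of 4 were higher in homozygous cord in each set, and none passed. Ap1g1, the gamma subunit that carries an ARF1-binding site, was at 128, 123, 117 and 127 CPM in heterozygous cord, 114, 105 and 113 CPM in homozygous replicates 2 to 4 and 123 CPM for the library labelled homozygous replicate 1. Homozygous replicates 2 to 4 lie below every heterozygous library and the library labelled homozygous replicate 1 lies among them. Log2 fold changes were -0.12 (SE 0.063, edgeR adjusted p = 0.348) over 8 libraries and -0.16 (SE 0.064, edgeR adjusted p = 0.202) over 7. RSEM divided some reads of Ap1g1 between it and similar sequences in all 8 libraries, so its counts are less certain. Ap1s1 was at 182, 161, 151 and 137 CPM in heterozygous cord, 184, 185 and 154 CPM in homozygous replicates 2 to 4 and 188 CPM for the library labelled homozygous replicate 1. The groups overlap, and the log2 fold change of 0.17 over 8 libraries and 0.14 over 7 (95% interval -0.09 to 0.38) did not exceed the spread between libraries. The beta subunit Ap1b1 had 0.07 (-0.09 to 0.23) and the mu subunit Ap1m1 0.02 (-0.14 to 0.17).

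AP-3 sorts cargo to lysosome-related organelles and, in its neuronal form with Ap3b2 and Ap3m2, to synaptic vesicles. The neuronal genes were the larger part of their pairs, at 84.5 ± 1.06% (Ap3b2) and 76.9 ± 1.48% (Ap3m2) of pair TPM in heterozygous libraries. Ap3b2 was at 152, 149, 151 and 151 CPM in heterozygous cord, 144, 146 and 146 CPM in homozygous replicates 2 to 4 and 152 CPM for the library labelled homozygous replicate 1. Homozygous replicates 2 to 4 lie below the heterozygous libraries by a few CPM, with a log2 fold change of -0.04 over 8 libraries and -0.06 over 7 (95% interval -0.18 to 0.07, edgeR adjusted p = 0.61). Ap3m2 was at 179, 183, 161 and 156 CPM in heterozygous cord, 153, 166 and 156 CPM in homozygous replicates 2 to 4 and 163 CPM for the library labelled homozygous replicate 1. Its groups overlap. Beside them, the neuron marker genes summed to 7866 to 9147 CPM in heterozygous libraries and 7324 to 7905 CPM in homozygous replicates 2 to 4. Of these 12 markers 3, the neurofilaments Nefl, Nefm and Nefh, fell over 7 libraries (edgeR adjusted p of 0.0223, 0.0223 and 0.0475). The part of neuron content in the AP-3 values was not tested. The ubiquitous Ap3b1 was at 40.3, 38.3, 38.2 and 42.02 CPM in heterozygous cord, 40.1, 36.3 and 37.02 CPM in homozygous replicates 2 to 4 and 41.1 CPM for the library labelled homozygous replicate 1. Ap3m1 was at 53.1, 53.4, 53.8 and 46.8 CPM in heterozygous cord, 51.8, 53.4 and 55.2 CPM in homozygous replicates 2 to 4 and 52.1 CPM for the library labelled homozygous replicate 1. Of the 5 AP-3 genes 1, Ap3m1, was higher in homozygous cord in each set, and the delta subunit Ap3d1, which binds ARF1, had -0.06 (-0.20 to 0.08) over 7 libraries.

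The GGA adaptors are single-chain ARF1 effectors that sort mannose 6-phosphate receptors, and all 3 had negative log2 fold changes in both sets, with a median of -0.18 over 8 libraries and -0.23 over 7. None passed the test. Gga2 was at 38.1, 28.7, 27.7 and 27.8 CPM in heterozygous cord, 26.5, 26.6 and 25.2 CPM in homozygous replicates 2 to 4 and 29.7 CPM for the library labelled homozygous replicate 1. Gga3 was at 69.9, 55.3, 55.1 and 52.8 CPM in heterozygous cord, 50.6, 49.7 and 48.3 CPM in homozygous replicates 2 to 4 and 56.4 CPM for the library labelled homozygous replicate 1. For both, homozygous replicates 2 to 4 lie below all heterozygous libraries, but heterozygous replicate 1 lies far above the other 3. Over 8 libraries the log2 fold change was -0.18 for Gga2 and -0.18 for Gga3 (edgeR adjusted p = 0.421 and 0.335). Over 7 libraries it was -0.23 (SE 0.11, edgeR adjusted p = 0.308) for Gga2 and -0.23 (SE 0.097, edgeR adjusted p = 0.223) for Gga3. Without heterozygous replicate 1 as well, it was -0.10 and -0.13 (edgeR adjusted p = 0.462 and 0.291), and the median of the 3 genes was -0.10. With the library labelled homozygous replicate 1 kept and heterozygous replicate 1 left out, it was -0.05 for Gga2 and -0.08 for Gga3. Gga1, the most abundant GGA, was at 56.2, 49.6, 49.3 and 48.98 CPM in heterozygous cord, 48.8, 48.8 and 50.8 CPM in homozygous replicates 2 to 4 and 51.8 CPM for the library labelled homozygous replicate 1. Apart from heterozygous replicate 1, its libraries lie close together.

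Heterozygous replicate 1 differs from the other heterozygous libraries in the same direction for genes of protein folding in the endoplasmic reticulum. Summed over 25 such genes, among them Hspa5, Calr and the Pdia disulfide isomerases, the level was 3648 CPM in this library, 2677 to 2728 CPM in the other 3 heterozygous ones. It was 2913 CPM in the library labelled homozygous replicate 1 and 2315 to 2758 CPM in homozygous replicates 2 to 4. On a log2 scale its GGA genes lay 0.27 above their heterozygous mean (median of 3 genes), while its median over all 45 genes lay 0.03 above. The part of this library's folding genes in the GGA values was not tested.

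**Figure D3:**
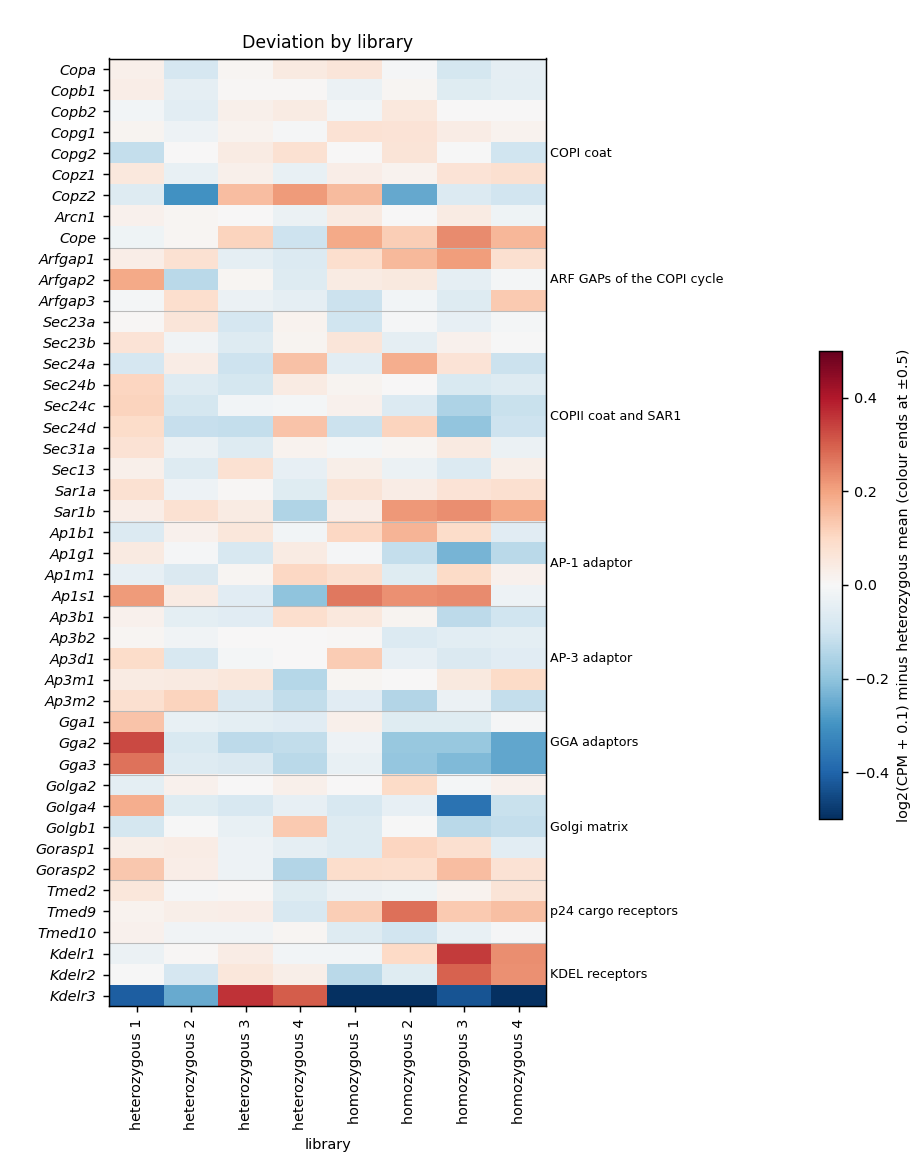
Deviation of each gene in each library from its heterozygous mean, as log2(CPM + 0.1), from blue (lower) to red (higher), with colour ending at 0.5 in either direction. Most cells are pale; the red cells of Gga1, Gga2, Gga3 and Golga4 in heterozygous replicate 1 and the blue cells of Kdelr3 in the homozygous libraries stand out.

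The 5 Golgi matrix genes, which tether vesicles and link cisternae, had a median log2 fold change of 0.02 over 8 libraries and 0.04 over 7, with 3 of 5 higher in each set and none past the test. Golga2, encoding the cis-Golgi tether GM130, had 0.04 (-0.10 to 0.17), and Golgb1, encoding giantin, -0.09 (-0.25 to 0.08) over 7 libraries. Golga4, a trans-Golgi golgin recruited by the ARF-like GTPase ARL1, had the lowest value, -0.17 (-0.39 to 0.05); it too is highest in heterozygous replicate 1. Gorasp2 and Gorasp1 encode the stacking proteins GRASP55 and GRASP65. Gorasp2 was at 99.4, 92.7, 88.96 and 81.8 CPM in heterozygous cord, 96.1, 101 and 95.1 CPM in homozygous replicates 2 to 4 and 96.3 CPM for the library labelled homozygous replicate 1. Gorasp1 was at 32.04, 32.2, 30.8 and 30.4 CPM in heterozygous cord, 33.8, 33.2 and 30.2 CPM in homozygous replicates 2 to 4 and 29.96 CPM for the library labelled homozygous replicate 1. Gorasp1 made up 17.6 ± 0.788% of the pair's TPM in heterozygous libraries and 16.98 ± 0.674% in homozygous replicates 2 to 4. The groups overlap for both genes.

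The p24 receptors form hetero-oligomers that load cargo into COPI and COPII vesicles and bind ARF1 directly in its GDP form, and 2 of the 3 genes had log2 fold changes near 0. Tmed2 was at 107, 103, 103 and 98.99 CPM in heterozygous cord, 102, 104 and 108 CPM in homozygous replicates 2 to 4 and 101 CPM for the library labelled homozygous replicate 1. Tmed10 had a log2 fold change of -0.05 (-0.18 to 0.08) over 7 libraries. Tmed9 was at 102, 102, 103 and 94.7 CPM in heterozygous cord, 121, 109.8 and 111 CPM in homozygous replicates 2 to 4 and 109 CPM for the library labelled homozygous replicate 1. All 4 libraries labelled homozygous lie above the heterozygous ones, heterozygous replicate 4 being the lowest and homozygous replicate 2 the highest. Tmed9 had a log2 fold change of 0.17 (SE 0.058, edgeR adjusted p = 0.20) over 8 libraries and 0.19 (SE 0.065, edgeR adjusted p = 0.164) over 7.

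KDEL receptors return escaped chaperones to the endoplasmic reticulum in COPI vesicles, and the 3 genes differed in direction. Kdelr1, the main form in cord at 56.5 ± 2.28 TPM in heterozygous libraries, was at 42.9, 43.9, 44.9 and 43.4 CPM in heterozygous cord, 46.9, 55.8 and 51.5 CPM in homozygous replicates 2 to 4 and 43.4 CPM for the library labelled homozygous replicate 1. Homozygous replicates 2 to 4 lie above all heterozygous libraries, and the library labelled homozygous replicate 1 lies with the heterozygous ones. The log2 fold change was 0.17 (SE 0.076, edgeR adjusted p = 0.289) over 8 libraries and 0.23 (SE 0.07, edgeR adjusted p = 0.123) over 7. Its highest value is in homozygous replicate 3, the library with fewer mapped reads, and without it the log2 fold change over the other 6 libraries was 0.17 (edgeR adjusted p = 0.383). Kdelr2 was at 20.4, 19.2, 21.2 and 20.8 CPM in heterozygous cord, 19.6, 25.1 and 23.9 CPM in homozygous replicates 2 to 4 and 18.6 CPM for the library labelled homozygous replicate 1. Homozygous replicates 3 and 4 are the highest and replicate 2 is within the heterozygous range, while the library labelled homozygous replicate 1 is the lowest. Its log2 fold change was 0.16 (-0.05 to 0.37) over 7 libraries.

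Kdelr3 (chr15:79516411-79527739) is the rare form and the gene with the largest log2 fold change of the 45. Its expected counts were 23, 21, 41 and 41 in heterozygous cord, 5, 15 and 9 in homozygous replicates 2 to 4 and 7 in the library labelled homozygous replicate 1. Scaled, these are 0.615, 0.698, 1.12 and 1.07 CPM, 0.186, 0.604 and 0.294 CPM and 0.183 CPM. All 4 libraries labelled homozygous, including the one with heterozygous-level Arf1, lie below the heterozygous libraries, with homozygous replicate 3 nearly reaching them. The log2 fold change was -1.51 (95% interval -2.39 to -0.63, edgeR adjusted p = 0.138) over 8 libraries and -1.30 (95% interval -2.23 to -0.36, edgeR adjusted p = 0.139) over 7. As a share of KDEL receptor TPM, Kdelr3 was 1.55 ± 0.427% in heterozygous libraries (SD, n = 4) and 0.493 ± 0.253% in the 4 labelled homozygous. The difference had p = 0.0286 in the exact permutation test, two-sided, the smallest p that 4 against 4 allows, and an adjusted p of 0.257 over 9 shares.

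Marker genes of Schwann cells, the myelinating cells of nerve roots attached to the cord, separated the groups in sum, with the homozygous side lower, as Kdelr3 did. The sum of 9 of them, Pmp22 included, was 209, 299.6, 427 and 306 CPM in heterozygous cord, 146, 186 and 160.4 CPM in homozygous replicates 2 to 4 and 163 CPM for the library labelled homozygous replicate 1. Pmp22, Drp2 and Sox10 made up most of this sum. Their means were 120.6, 88.5 and 41.1 CPM in heterozygous cord and 37.5, 65.6 and 34.6 CPM in the 4 libraries labelled homozygous. By gene, 5 of 9 (Prx, Pmp2, Pmp22, Dhh and Drp2) lie below all heterozygous libraries in the 4 libraries labelled homozygous, and 3 overlap (Ncmap, Sox10 and Scn7a). Egr2 lies above, at 13.7, 15.5, 12.4 and 11.7 CPM in heterozygous cord, 15.7, 18.3 and 17.2 CPM in homozygous replicates 2 to 4 and 15.6 CPM for the library labelled homozygous replicate 1. None of the 9 is at 0 throughout, and 1 of 9, Dhh, fell over 7 libraries (edgeR adjusted p = 0.0256). The sum of 10 fibroblast markers was 166, 174, 259.7 and 299 CPM, 176, 204 and 211 CPM and 163 CPM in the same order. The sums overlap, but 4 of the 10 genes, Col1a1, Col3a1, Dcn and Lum, lie below all heterozygous libraries in the 4 labelled homozygous, while the other 6, the abundant Igf2 and Pdgfra among them, overlap. Of the 10, Col3a1 fell over 7 libraries (edgeR adjusted p = 0.0498). Over 8 libraries, homozygous lay wholly below heterozygous for 4.67% of all genes and wholly above for 4.61%. Other markers wholly below were 2 of 10 for endothelial cells and pericytes, 2 of 12 for neurons and 1 of 10 for oligodendrocytes. Wholly above were 4 of 10 microglia, 1 of 8 astrocyte and 1 of 10 oligodendrocyte markers. Blood cell markers all overlapped. The part of any of these cell types in the Kdelr3 values was not tested.

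**Figure D4:**
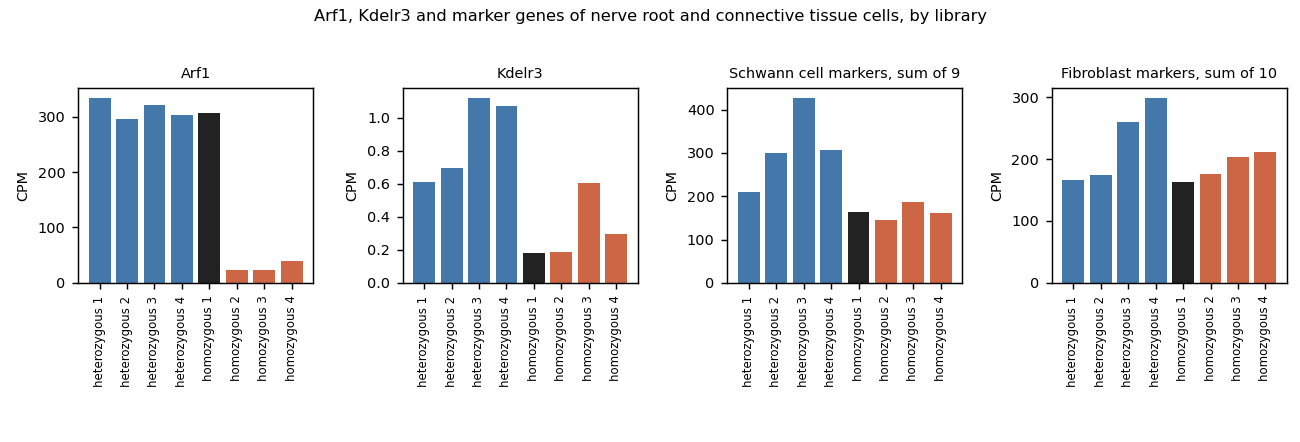
CPM by library for Arf1, Kdelr3, the sum of 9 Schwann cell markers and the sum of 10 fibroblast markers, each on its own axis from 0; blue bars are heterozygous libraries, the black bar the library labelled homozygous replicate 1 and orange bars homozygous replicates 2 to 4. Arf1 is low in the 3 orange bars only, whereas Kdelr3 and the Schwann cell markers are lower in the black bar as well.

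Across the 9 paralog shares tested, none passed after adjustment in either set, but so few libraries could hardly give a call. The smallest p that the exact permutation test allows is 0.0286 in both sets. A single share at that p, as Kdelr3 was over 8 libraries, is adjusted to 0.257 over the 9 shares. The lack of a call therefore says little about the shares. The smallest adjusted p was 0.257 in both sets, for Kdelr3 over 8 libraries and for Kdelr3 and Sar1b over 7. The differences in mean share over 7 libraries ran from -1.04 percentage points for Copg2 to 2.55 for Sar1b. In families that were not among these tests, Gga1, Gga2 and Gga3 made up 41.4%, 22.9% and 35.7% of GGA TPM, and Arfgap1, Arfgap2 and Arfgap3 62.8%, 28.6% and 8.60% of theirs, over 8 libraries.

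**Figure D5:**
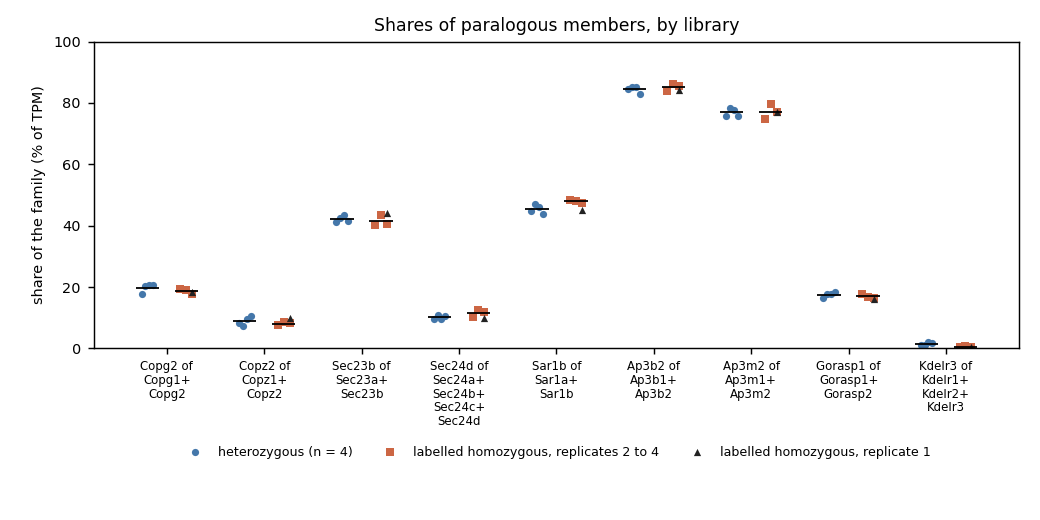
Share of each of 9 paralogs in its family's TPM, in percent, by library; circles are heterozygous libraries, squares homozygous replicates 2 to 4 and triangles the library labelled homozygous replicate 1, with bars at group means. Ap3b2 and Ap3m2 are the larger part of their pairs in every library, and Copz2, Sec24d and Kdelr3 have the smallest shares.

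Other genes of the same pathway were read from 9 lists. Of 189 symbols 186 were found and 181 tested; over 8 libraries 0 passed, and over 7 libraries 0 were higher (0.55% of all genes) and 1 was lower (0.67% of all genes). That gene was Asap1, encoding an ARF GAP of the cell periphery. It was at 167, 156, 149 and 137 CPM in heterozygous cord, 116, 119.8 and 107 CPM in homozygous replicates 2 to 4 and 129.96 CPM for the library labelled homozygous replicate 1. Homozygous replicates 2 to 4 lie below the heterozygous libraries and so does the library labelled homozygous replicate 1. The log2 fold change was -0.37 (SE 0.078, edgeR adjusted p = 0.117) over 8 libraries and -0.42 (SE 0.08, edgeR adjusted p = 0.0462) over 7. Leaving out any 1 of the 7 libraries ended the call, with adjusted p between 0.0553 (without heterozygous replicate 1) and 0.135 (without homozygous replicate 2). In all, 6 of 16 alternative runs over 7 libraries called Asap1. Over 8 libraries 2 of 17 did, 1 of them the run without homozygous replicate 1. The next smallest p-values over 7 libraries belonged to Cog6, of the COG tether (-0.32), the Golgi SNARE Stx5a (0.26), the tether gene Nbas (-0.31) and the ARF GAP Arap2 (-0.25), with edgeR adjusted p from 0.0696 to 0.0844.

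The median log2 fold change of all genes over 7 libraries was 0.0027. By list, it was 0.07 for other p24 proteins (5 of 6 tested above 0), -0.0061 for other COPII and exit-site genes (17 tested) and 0.01 for clathrin, AP-2 and further adaptor subunits (25 tested). For other golgins and tethers it was -0.02 (20 tested), for the COG, GARP and TRAPP tethering complexes 0.04 (29 tested), for SNAREs 0.02 (23 tested) and for other ARF effectors -0.0063 (17 tested). The 19 other ARF GAPs tested had a median of -0.11 over 8 libraries and -0.09 over 7, with 5 and 4 of 19 above 0. The 25 folding genes had a median of -0.18 and -0.23, with 6 and 4 of 25 above 0 and 0 past the test. The lowest of them was Pdia4, a disulfide isomerase, at -0.66 (edgeR adjusted p = 0.0858) over 7 libraries. Without heterozygous replicate 1 the median of the folding genes was -0.07 over the other 7 libraries and -0.13 over the other 6.

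On the TPM scale, which the authors' RSEM values set relative to all transcripts, the whole of the expression table is shifted: the median log2 fold change of all genes on log2(TPM + 1) was -0.14 over 8 libraries and -0.17 over 7. In limma on that scale 7 of the 45 genes were lower at an adjusted p of 0.05 over 7 libraries (Ap3m2, Gga3, Kdelr3, Sec24c, Golgb1, Tmed10 and Ap3d1), where 12.5% of all genes were lower and 0.543% higher. Over 8 libraries it called 0 of 45 and 0.00606% of all genes lower. Relative to the shift, these 7 lay between -0.47 for Kdelr3 and -0.09 for Tmed10. The positive log2 fold changes of Arfgap1, Sar1b and Tmed9 turned negative on this scale in both sets, as did Cope over 7 libraries and Kdelr1 over 8. Relative to the shift over 7 libraries they stayed positive, at 0.083 for Arfgap1, 0.166 for Sar1b and 0.139 for Tmed9. Cope was at 0.145 and Kdelr1 at 0.181 in the same way.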

How the data were processed

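Per the submitters' processing notes, the authors used cutadapt, STAR (mm10), RSEM and Picard; the sources used here give no versions, annotation or use of strand. They deposited expected counts, TPM, FPKM and effective length (other) per gene and library, per the file headers; FPKM were not used. The authors deposited log2 fold changes and p-values of their comparison, per the file headers, and a sequencing report with other measures. Columns of no sample numbered 0.

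The 45 genes, the gene lists and the rules were chosen with earlier results of these data known. Expected counts were rounded and fitted over all genes with edgeR 4.0.16 (R 4.3.3, TMM, filterByExpr by group, robust quasi-likelihood, Benjamini-Hochberg, threshold 0.05), and all 45 passed the filter. The SE was derived from each fit as the absolute log2 fold change over the square root of the F statistic. The 95% intervals follow from this SE and a t distribution, and so are approximate. Of the 45 genes, 14 had fractional counts in at least 1 library (tolerance 0.001), 7 of them in all 8 (Ap1g1, Ap3m1, Arfgap2, Copa, Copg2, Gorasp2 and Tmed2), and those counts are less certain. Counts of 26321522 to 37879426 per library leave genes near 1 CPM, such as Kdelr3, imprecise. Shares are of TPM, tested by exact permutation (scipy 1.17.1). Alternatives used DESeq2 1.42.0 and limma 3.58.1. The fitting procedure was tested on simulated data. Of the Schwann cell list, 1 marker is not reported here.

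Values in every library are given for genes with the 4 smallest p in each direction over 7 libraries and the 2 over 8, the highest of each complex, those whose groups do not overlap over 7 libraries, and paralogs with shares. Deviations use log2(CPM + 0.1). Positions are GENCODE M21 or RefSeq promoters (GRCm38.p6, the assembly also called mm10); motifs were searched on both strands. Replicate numbers follow accession order and pair nothing.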

Additional observations from a re-analysis of the deposited data

Results flagged for a closer look

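In each group of 4 libraries, the highest or lowest value of each of the 45 genes and Arf1 was checked for a gap to the nearest other value above Dixon's 95% critical value, as a part of the group's range. Chance gives such a gap in about 1 in 20 groups, and 10 of 92 groups showed one. In heterozygous replicate 1 the GGA genes and Golga4 were high: Gga1 at 56.2 CPM against 49.0 to 49.6 CPM in the other 3, Gga2 at 38.1 against 27.7 to 28.7, Gga3 at 69.9 against 52.8 to 55.3, and Golga4 at 129.7 against 108 to 111. In heterozygous replicate 4, Ap3m1 was low at 46.8 CPM (others 53.1 to 53.8) and Tmed9 was low at 94.7 CPM (others 102 to 103). Among libraries labelled homozygous, Tmed9 was high in replicate 2 at 121 CPM (others 109 to 111), Ap1s1 was low in replicate 4 at 154 CPM (others 184 to 188), and Ap3d1 was high in replicate 1 at 176 CPM (others 153 to 156). Arf1 was high in replicate 1, at 307 CPM, against 22.5 to 39.9 CPM in the other 3.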

How the results depend on the processing

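The count of 0 of 45 genes called held under every alternative run, over 8 and 7 libraries, except limma on log2(TPM + 1) over 7, which called 7 (at a filter of 1 CPM in 4 libraries, 44 of 45 were tested, without Kdelr3). The count over all genes moved more. Over 8 libraries it was 0, but 63 with no filter, 679 with DESeq2, 1 on log2(TPM + 1) and 71 at an adjusted p of 0.1. It was 0 to 202 with each library left out (40 without heterozygous replicate 1 and 202 without homozygous replicate 1). Over 7 libraries it was 202, but 444 with no filter, 1083 with DESeq2, 109 with limma-voom, 2155 on log2(TPM + 1), 63 with the Xist covariate, and 834 at an adjusted p of 0.1. It was 6 to 402 with each library left out (58, 51 and 33 without heterozygous replicates 2, 3 and 4, and 22, 6 and 402 without homozygous replicates 2, 3 and 4). On log2(TPM + 1) the log2 fold change turned to -0.056 (8 libraries) and -0.092 (7) for Arfgap1, -0.0093 and -0.0088 for Sar1b, -0.0077 and -0.036 for Tmed9, -0.010 (8) for Kdelr1 and -0.030 (7) for Cope; the shift of all genes on this scale is given above. With shares of expected counts in place of TPM, the difference in percentage points turned to 0.66 (8 libraries) and 0.13 (7) for Sec23b, -1.61 and -1.87 for Ap3m2, -0.14 (8) for Sec24d and -0.0054 (8) for Ap3b2; the cause was not tested. Leaving out each library gave differences from -0.61 to 0.99 (8) and -0.96 to 1.43 (7) for Ap3m2, -0.75 to 0.63 (8) for Sec23b, -1.05 to 0.032 (8) for Copz2 and -0.022 to 0.84 (8) for Ap3b2, all without a call. The alternative medians of the folding, GGA and KDEL receptor genes were added after seeing the data. No paired analysis was possible because the labels carry only animal numbers and the replicate numbers follow accession order.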
